A study of Mus musculus with 11 samples.

Results

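Endothelial lineage transcription factors are the DNA-binding proteins that set and keep the identity of blood vessel cells. The transcripts of 10 of them were followed here in CD31hi EMCNhi endothelial cells of mouse bone marrow. They were chosen by gene symbol: the ETS factors *Erg*, *Fli1*, *Ets1* and *Ets2*, the SOXF factors *Sox7*, *Sox17* and *Sox18*, and *Tal1*, *Gata2* and *Nr2f2*. All 10 were found by Entrez gene ID among the 27179 rows of the count table, and all 10 were among the 11949 genes that passed the filter on low counts.

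The cells were sorted by flow cytometry from BALB/c mice of 8 to 10 weeks, with cells carrying the blood markers CD45 or Ter-119 and dead cells left out. Burdened mice carried 4T1.2 mammary tumour cells, a bone-metastatic line of the same strain that was labelled with red fluorescent protein. Their marrow was cut under the microscope into areas that held tumour cells (met, 3 libraries) and areas that did not (non-met, 6 libraries), and mice without tumour gave the control group (2 libraries). Each library came from 700 to 5500 cells of a pool of 1 to 4 mice, and the 11 libraries came from 6 pools. The met library of burdened pools 2, 3 and 4 had non-met libraries from the same mice, namely non-met 2 and 6, non-met 3 and non-met 4, while non-met 1 and 5 shared burdened pool 1. The 4T1.2 line stands for a single tumour, so these libraries describe one tumour model.

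ETS factors bind sites with a GGAA core, and most genes that mark endothelium carry such sites in their promoters or enhancers. *Erg* and *Fli1* keep the endothelial programme running in adult vessels, and *Ets1* and *Ets2* also answer to growth factor signalling. SOXF factors act with ETS factors in the development of arteries and lymphatic vessels, *Sox17* being linked to arterial and *Sox18* to lymphatic fate. *Tal1* and *Gata2* are shared with blood stem cells and work in one protein complex, and *Nr2f2*, also called COUP-TFII, is the nuclear receptor that holds venous identity.

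Read depth ran from 733342 to 19539761 counts per library. Non-met 4 and non-met 6 were the shallowest libraries and control 1 the deepest. The sort markers were present in every library, *Pecam1* (CD31) at 972 to 3162 CPM (reads scaled to library size) and *Emcn* (endomucin) at 351 to 1361 CPM. Transcripts of 4 keratins of mammary epithelium summed to 0.978 to 5.22 CPM in the controls and in non-met 1 and 2, and to 10.4 to 89.9 CPM in the other 7 libraries. After these values were seen, the libraries were divided here into 2 sets, although the fold gap between them was smaller than the fold range within either. All controls were in set 1 and all met libraries in set 2, and the non-met libraries were in both. In bulk RNA of this kind, fewer cells of a type and less RNA per cell cannot be distinguished.

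Promoter sequences are taken from the RefSeq table of GRCm38.p6, the build that mm10 stands for, in which 5 of the 10 members matched, with 9 windows. Those of *Nr2f2*, *Tal1* and *Ets2* are shown, the members that stood apart or passed the test in the comparison of met with control, and those of *Gata2* and *Erg* are not shown. Each line gives the 250 bases before the outermost annotated start, 5′ to 3′ on the strand of the gene, with the ETS core GGAA, read on either strand (so also as TTCC), in capitals.
*Nr2f2* (chr7:70366747-70366996, minus strand): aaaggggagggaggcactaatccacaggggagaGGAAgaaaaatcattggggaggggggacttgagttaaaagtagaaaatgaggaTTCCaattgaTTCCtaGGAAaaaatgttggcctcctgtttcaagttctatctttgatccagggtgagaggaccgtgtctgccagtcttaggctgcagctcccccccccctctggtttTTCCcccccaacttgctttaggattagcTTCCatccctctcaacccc
*Tal1* (chr4:115056176-115056425, plus strand): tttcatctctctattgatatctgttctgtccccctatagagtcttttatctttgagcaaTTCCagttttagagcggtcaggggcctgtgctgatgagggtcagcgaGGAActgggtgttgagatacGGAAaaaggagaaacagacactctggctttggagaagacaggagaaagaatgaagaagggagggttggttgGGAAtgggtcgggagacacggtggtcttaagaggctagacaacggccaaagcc
*Ets2* (chr16:95702157-95702406, plus strand): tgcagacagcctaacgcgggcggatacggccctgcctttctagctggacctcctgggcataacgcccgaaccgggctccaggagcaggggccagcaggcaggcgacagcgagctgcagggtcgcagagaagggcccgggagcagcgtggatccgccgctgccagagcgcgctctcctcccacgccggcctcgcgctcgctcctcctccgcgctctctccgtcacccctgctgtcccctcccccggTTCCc
The core is short, and 93.4% of all 32851 windows of this length held at least 1 copy, with a median of 3. The *Nr2f2* window held 6, as many as or more than which were found in 8.69% of all windows. The *Tal1* window held 4 and the *Ets2* window 1. The longer ETS motif AGGAAG, found on either strand in 29.5% of all windows, was present in the *Nr2f2* window and in neither of the other two. The GATA motif AGATAA, found on either strand in 9.99% of windows, was present in the *Tal1* window. These matches describe the letters of the windows and no binding was measured.

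Compared per length of transcript, as log2 RPKM, the reads scaled to library size and gene length, 4 members stood at the top in every group. Over the 11 libraries the means were 8.50 ± 0.60 (SD) for *Sox18*, 8.0 ± 0.39 for *Ets1*, 7.84 ± 0.66 for *Ets2* and 6.12 ± 0.37 for *Erg*. *Sox18* and *Ets1*, and *Ets1* and *Ets2*, were neighbours that did not differ beyond the spread of their difference, whereas *Ets2* lay above *Erg* in 11 of 11 libraries, by 1.73 ± 0.93 (SD) log2 RPKM. Below them came *Gata2* (4.86 ± 2.36), *Sox17* (4.20 ± 2.64), *Nr2f2* (4.03 ± 1.63), *Fli1* (3.81 ± 2.60), *Sox7* (3.02 ± 3.32) and *Tal1* (1.68 ± 3.43). No pair of neighbours among these 6, nor *Erg* and *Gata2*, differed beyond its spread. In the met libraries alone, *Nr2f2* was the fifth gene in the order, at 5.57 ± 0.18 log2 RPKM (n = 3), against 3.24 ± 1.75 in non-met (n = 6) and 4.11 ± 0.27 in control (n = 2).

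**Figure D1:**
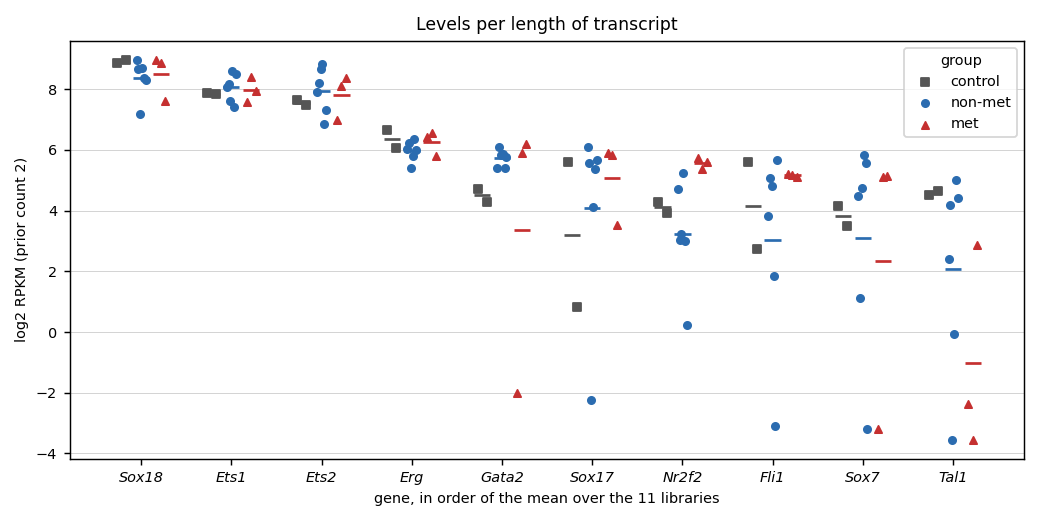
Each point is 1 library, plotted as log2 RPKM (vertical axis) for each gene (horizontal axis, ordered by the mean over the 11 libraries), with grey squares for control, blue circles for non-met and red triangles for met, and short lines for group means. Sox18, Ets1, Ets2 and Erg form compact groups at the top, whereas the 6 genes to their right spread over several log2 units, with single libraries near the bottom of the axis.

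Within the families, the shares were computed from RPKM without a prior count. *Sox18* gave the largest share of SOXF transcript in 11 of 11 libraries, from 78.9% to 97.5%. *Sox17* gave 0.0582% to 13.8% and *Sox7* 0% to 15.5%. Among the 4 ETS members, *Ets1* led in 7 libraries and *Ets2* in 4. *Erg* gave 6.19% to 22.4% of their sum and *Fli1* 0% to 8.38%. *Ets1* and *Fli1* are neighbours on chromosome 9, 92.8 kb apart, and *Erg* and *Ets2* on chromosome 16, 116 kb apart, with no protein-coding gene between the members of either pair. The neighbours did not share a level, since *Ets1* and *Ets2* lay far above the other gene of their pair.

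The members differed in how steadily they were found. Of 110 values (10 genes in 11 libraries), 9 were at 3 reads or fewer, which was taken as the floor. *Tal1* was at the floor in 4 libraries (non-met 3, non-met 4, met 1 and met 2), *Sox7* in 2 (non-met 6 and met 1), and *Fli1* (non-met 5), *Sox17* (non-met 3) and *Gata2* (met 1) in 1 each. Thus 5 members were at the floor somewhere, and among all 4501 tested genes with a mean CPM in the range of the members (49.9 to 1340 CPM) the share with such a library was 49.6%. The floor corresponded to 5.43 CPM in non-met 4 and to 0.568 CPM in met 2, so the zero in met 2 was the more precise. Over the 6 non-met libraries, the SD of log2 CPM was 0.27 for *Gata2*, 0.34 for *Erg*, 0.47 for *Ets1*, 0.63 for *Sox18* and 0.77 for *Ets2*. It was 1.75 for *Nr2f2* and 3.17 to 3.51 for *Sox17*, *Fli1*, *Tal1* and *Sox7*, against a median of 1.80 over the 4501 genes.

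Libraries of the same mice and group gave a view of this spread that no comparison of groups enters. Non-met 1 and 5 had 144 and 182 CPM of *Erg* and 137 and 136 CPM of *Gata2*, but 43.6 and 0 CPM of *Fli1*. Non-met 2 and 6 had 39.2 and 5.33 CPM of *Nr2f2*, a difference of 2.80 log2 units within a single pool. *Sox7* was found at 6.82 CPM in non-met 2 and not at all in non-met 6.

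**Figure D2:**
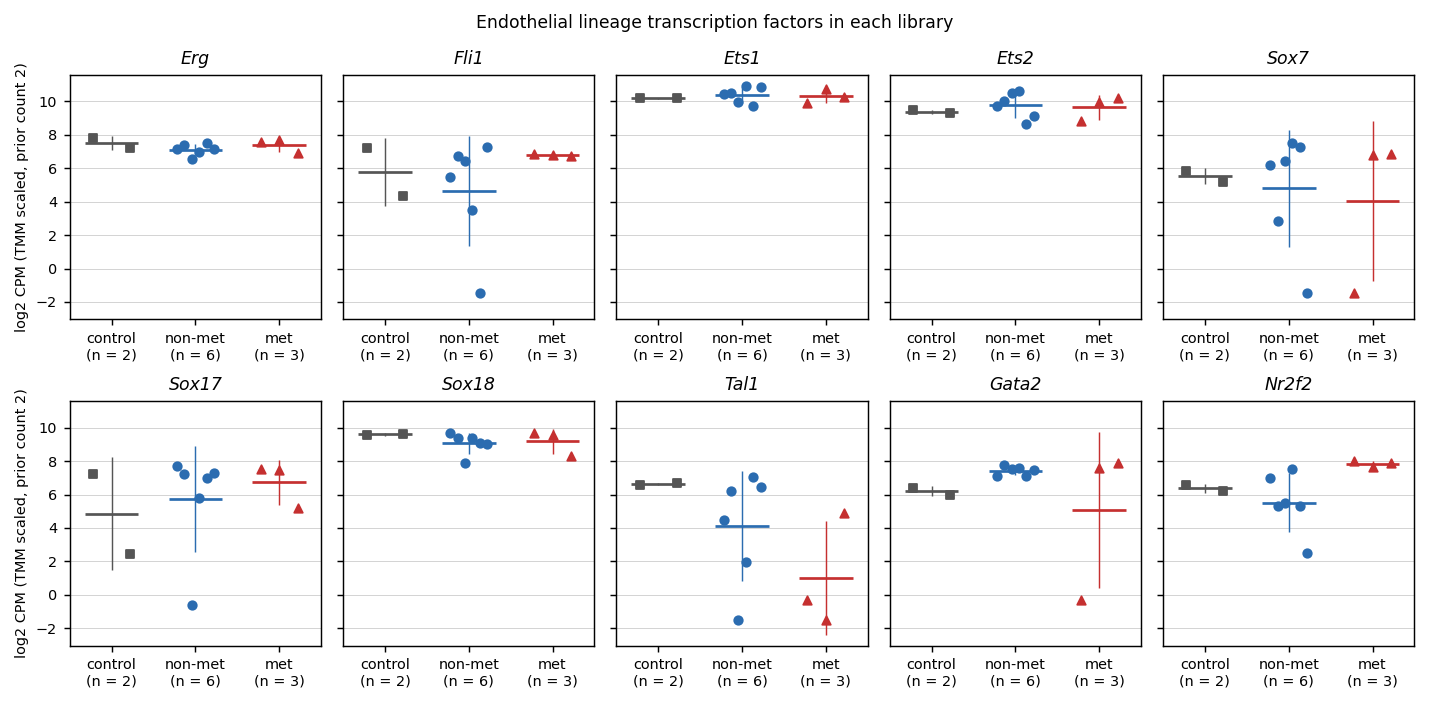
Each panel shows 1 gene, with log2 CPM on the vertical axis and the groups on the horizontal axis, a point for each library, a horizontal line for the group mean and a vertical line for the mean ± SD. Nr2f2 is higher in the 3 met libraries than in all others, Tal1 is lower in them than in both controls, and Gata2 is higher in the 6 non-met libraries than in both controls.

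The comparison of met with non-met asks whether the endothelium next to tumour cells differed from that of the same burdened marrow away from them. No member passed the test between these groups. The largest fitted differences were those of *Tal1*, lower in met, and of *Nr2f2* and *Fli1*, higher in met, and *Nr2f2* was the single member whose libraries did not overlap. Of the 10 members, 0 passed voomLmFit at an adjusted P of 0.05, 1 (*Nr2f2*) had an unadjusted P under 0.05, and edgeR's quasi-likelihood test, DESeq2 and limma-trend also called 0. Over all genes tested, voomLmFit called 0.418%, and the other tests, in that order, 0.142%, 2.73% and 0.0167%. The groups of 1 member in 10 did not overlap in log2 CPM, compared with 1.98% of all genes tested (1.54% higher in met). The median fitted log2 fold change was 0.12 over the members and 0.08 over all genes tested, and 6 of the 10 members were fitted higher in met.

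*Nr2f2* was counted at 259, 202 and 237 CPM in met 1, 2 and 3. In non-met its lowest, median and highest values were 5.33, 42.0 and 185 CPM, and the controls had 95.4 and 73.1 CPM. All 3 met libraries lay above all 8 others. Mean log2 CPM was 7.86 ± 0.18 (SD, n = 3) in met and 5.52 ± 1.75 (n = 6) in non-met, a difference of 2.33 (exact two-sided permutation test over 84 splits, P = 0.0476, smallest possible P 0.0119, adjusted P = 1 over all genes tested). This was 1 of 30 such tests made on the members. The splits treat libraries of the same mice as independent, and with the libraries of a pool and group averaged the exact P was 0.0571 (35 splits). The fitted log2 fold change was 2.26 ± 0.89 (SE, voomLmFit adjusted P = 0.55). The adjusted P stayed between 0.367 and 1 in all 27 alternative fits, and the fitted value was positive in all 27. Since all 3 met libraries lay above all 8 others, each also lay above the non-met libraries of its own mice, in 3 of 3 pools. The gaps to the mean of the non-met libraries of the pool were 4.11, 2.16 and 0.36 log2 units in pools 2, 3 and 4. The smallest of these gaps was in burdened pool 4, where non-met 4 had 102 reads at the lowest depth of the series. Among the 7 libraries of set 2, the 3 met libraries also lay above all 4 non-met libraries. *Nr2f2* overlaps the long non-coding RNA gene *B130024G19Rik*, which reached at most 23.0 CPM in any library. Whether strand was used in the counting is not stated, so reads of the 2 genes may be shared, and the share was not measured. In non-met 6 *Nr2f2* itself had 5.33 CPM.

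**Figure D3:**
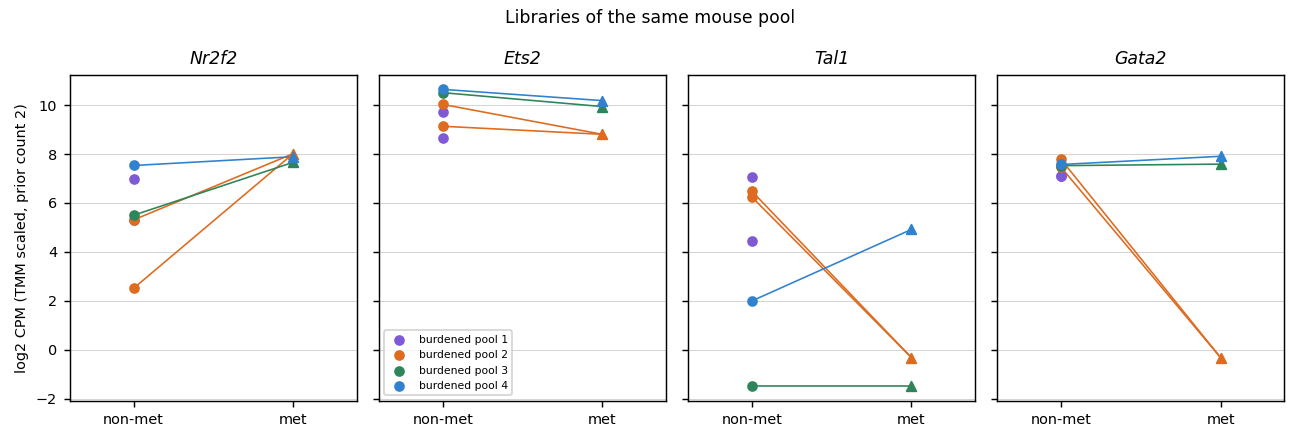
Log2 CPM (vertical axis) of 4 genes in the non-met and met libraries of each burdened mouse pool, with a colour for each pool and lines joining libraries of the same mice. Nr2f2 rises from non-met to met along all 4 lines and Ets2 falls along all 4, whereas the lines of Tal1 and Gata2 go different ways in different pools.

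*Tal1*, a helix-loop-helix factor of the blood and endothelial lineage, had 0.441, 0 and 29.8 CPM in met 1, 2 and 3. It had 0 CPM in non-met 3, a non-met median of 48.5 CPM and a highest value of 132 CPM in non-met 5. The groups overlapped widely. The difference in mean log2 CPM was -3.09 (exact two-sided permutation P = 0.25), and the fitted log2 fold change was -4.02 ± 2.44 (SE, voomLmFit adjusted P = 0.751). Within the pools the direction was not shared. Burdened pool 2 was lower in met by a log2 CPM difference of -6.69, pool 4 was higher in met by 2.92, and pool 3 had 0 reads in both libraries.

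*Gata2*, the GATA factor of blood stem cells and endothelium, had 192 and 240 CPM in met 2 and met 3, within or just above the non-met range of 136 to 220 CPM. Met 1 had 1 read, or 0.441 CPM. The difference in mean log2 CPM of -2.37 (exact two-sided permutation P = 0.321) rested on that library and became 0.33 without it. The fitted log2 fold change was -1.16 ± 1.31 (SE, voomLmFit adjusted P = 0.868) and became 0.35 without met 1. Met 1 also had 1 read of *Tal1* and 0 reads of *Sox7*, and it held 258.6 CPM of *Nr2f2*, the highest value of all libraries.

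*Fli1* was even in the met libraries, at 113, 112 and 105 CPM, and ranged from 0 to 155 CPM in non-met, with a median of 64.6 CPM. The met values lay inside the non-met range. Its fitted log2 fold change was 1.65 ± 1.24 (SE, voomLmFit adjusted P = 0.789), and the difference in mean log2 CPM was 2.14 (exact two-sided permutation P = 0.333). *Erg* had 190, 206 and 122 CPM in met and 93.6 to 182 CPM in non-met, with a fitted log2 fold change of 0.15 ± 0.62 (SE, voomLmFit adjusted P = 0.976).

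*Ets1* had 960, 1711 and 1230 CPM in met and 861 to 1968 CPM in non-met. It was the most precisely fitted member, with a log2 fold change of -0.10 ± 0.10 (SE, voomLmFit adjusted P = 0.828). Met 3 carried 81.3% of the weight of met in this fit, and non-met 2 62.2% of that of non-met. The small error thus rests largely on 1 library of each group. *Ets2* had 447, 982 and 1163 CPM in met and 408 to 1601 CPM in non-met, with a fitted value of 0.13 ± 0.19 (SE, adjusted P = 0.913). Within the pools, however, *Ets2* was lower in met in 3 of 3, with log2 CPM differences of -0.78, -0.57 and -0.46. The difference in mean log2 CPM was -0.14. The fitted value was negative in 6 of 27 alternative fits, among them edgeR's quasi-likelihood test (-0.19), DESeq2 (-0.34), limma-trend (-0.14), the fit with mouse pool as a fixed block (-0.57) and the fit without met 3 (-0.33), and it passed the test in none of the 27.

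The SOXF factors showed no shared direction. *Sox18* had 811, 761 and 316 CPM in met and 233 to 807 CPM in non-met (fitted log2 fold change -0.43 ± 0.33, SE). *Sox17* had 188, 177 and 35.7 CPM in met and 0.311 to 212 CPM in non-met (0.62 ± 1.29). *Sox7* had 0, 111 and 115 CPM in met and 0 to 185 CPM in non-met (0.12 ± 2.25). Their voomLmFit adjusted P values were 0.795, 0.947 and 0.996. The differences in mean log2 CPM were 0.12, 0.99 and -0.75, so that for *Sox18* and *Sox7* they had the opposite sign to the fitted values.

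**Figure D4:**
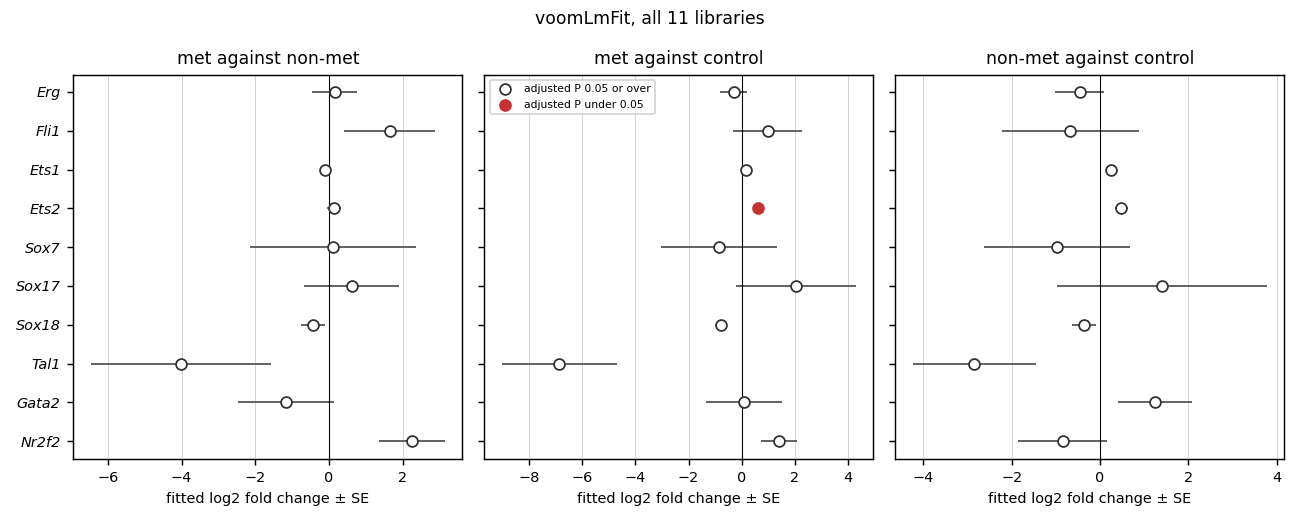
Fitted log2 fold change (horizontal axis) with its SE for each gene in the 3 comparisons of voomLmFit, each panel on its own scale, with a filled red point where the adjusted P was under 0.05. Ets2 in met against control is the single filled point, and in each panel the shortest bars belong to Ets1, Ets2 and Sox18.

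Met was next set against marrow of mice without tumour. A single member, *Ets2*, passed the test and was fitted higher in met. *Tal1* was lower and *Nr2f2* higher in all 3 met libraries than in both controls, and neither passed the test. Of the 10 members, 1 was called by voomLmFit, where 1.2% of all genes tested were called (0.686% higher in met), and 5 (*Ets1*, *Ets2*, *Sox18*, *Tal1* and, just below it, *Nr2f2*) had an unadjusted P under 0.05. The other tests called 0 members, and 0.0837% (edgeR's quasi-likelihood test), 1.91% (DESeq2) and 0.0753% (limma-trend) of all genes tested. The libraries of 2 members did not overlap, *Nr2f2* higher and *Tal1* lower, where 20.7% of all genes tested did not (8.43% higher and 12.3% lower), so that the share of members that stood apart was no more than that of all genes. With 3 libraries against 2, an exact permutation test cannot go below P = 0.1. The median fitted log2 fold change was 0.12 over the members and -0.09 over all genes tested.

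*Ets2* had 705 and 630 CPM in the controls, inside the met range of 447 to 1163 CPM, so the groups overlapped. Its fitted log2 fold change was 0.61 ± 0.15 (SE, voomLmFit adjusted P = 0.0403), whereas the plain difference in mean log2 CPM was 0.26 (exact two-sided permutation P = 0.8). In the fit, control 1 carried 95.3% of the weight of the controls and met 3 69.8% of that of met. The call was lost in 14 of 24 alternative fits, among them edgeR's quasi-likelihood test, DESeq2 and limma-trend (adjusted P = 1 in each), and the fit without control 1 or without met 3. *Sox18* was fitted lower, by a log2 fold change of -0.79 ± 0.21 (SE, voomLmFit adjusted P = 0.0604), with control values of 746 and 804 CPM inside the met range of 316 to 811 CPM. *Ets1* had 1174 and 1158 CPM in the controls and a fitted value of 0.14 ± 0.07 (SE, adjusted P = 0.316), with 99.99% of the control weight on control 1.

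*Tal1* had 95.0 and 103 CPM in the controls and at most 29.8 CPM in met. The difference in mean log2 CPM was -5.60 (exact two-sided permutation P = 0.2) and the fitted log2 fold change -6.86 ± 2.16 (SE, voomLmFit adjusted P = 0.109). *Nr2f2* was higher in met by 1.47 log2 CPM (exact two-sided permutation P = 0.1, the smallest possible), with a fitted log2 fold change of 1.41 ± 0.68 (SE, voomLmFit adjusted P = 0.355). *Gata2* had 85.3 and 62.8 CPM in the controls, below met 2 and met 3 and above met 1, with a difference in mean log2 CPM of -1.14 (exact two-sided permutation P = 1) and a fitted log2 fold change of 0.09 ± 1.42 (SE). The adjusted P values of *Gata2*, *Erg*, *Fli1*, *Sox7* and *Sox17* from voomLmFit lay between 0.754 and 0.981. All control libraries were in set 1 and all met libraries in set 2, and with a term for the set, which rests on the non-met libraries, no member was called.

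Non-met set against control describes the burdened marrow outside the tumour areas. No member passed the test, and *Gata2* was higher in all 6 non-met libraries than in both controls. voomLmFit called 0 of the 10 members and 0.636% of all genes tested, 2 members (*Ets1* and *Ets2*) had an unadjusted P under 0.05, and the other 3 tests called 0 (0.117%, 2.23% and 0.067% of all genes tested, in the same order). The libraries of 1 member did not overlap, compared with 6.29% of all genes tested (1.26% higher in non-met). The median fitted log2 fold change was -0.41 over the members and -0.33 over all genes tested. The same controls enter this comparison and the one of met with control.

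*Gata2* had 85.3 and 62.8 CPM in the controls and 136 to 220 CPM in non-met, with a median of 180 CPM. Mean log2 CPM was 7.42 ± 0.27 (SD, n = 6) in non-met and 6.20 ± 0.31 (n = 2) in control, a difference of 1.22 (exact two-sided permutation over 28 splits, P = 0.0357, the smallest possible, adjusted P = 0.835 over all genes tested). These splits count libraries of the same mice as independent, although the 6 non-met libraries came from 4 pools. With the libraries of a pool averaged, fewer splits remain and the smallest possible P is larger. The fitted log2 fold change was 1.25 ± 0.83 (SE, voomLmFit adjusted P = 0.408). Non-met 1 and non-met 2, which belong to library set 1 with the controls, had 137 and 219.6 CPM. That they lay above both controls follows from the separation of all 6 non-met libraries. *Ets1* and *Ets2* were fitted higher in non-met by 0.25 ± 0.07 and 0.48 ± 0.14 (log2 fold change ± SE, voomLmFit adjusted P = 0.0938 and 0.102). For each, the control values lay inside the non-met range.

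*Tal1* was spread over the whole range in non-met and steady in the controls, with a difference in mean log2 CPM of -2.51 (exact two-sided permutation P = 0.429). Its fitted log2 fold change was -2.84 ± 1.39 (SE, voomLmFit adjusted P = 0.297). *Nr2f2* gave a difference of -0.87 (exact two-sided permutation P = 0.571) and a fitted value of -0.85 ± 1.00 (SE, adjusted P = 0.624). The voomLmFit adjusted P values of the remaining members lay between 0.444 and 0.796.

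*Tal1*, *Gata2* and *Fli1* are also expressed by blood cells, and markers of other cells were therefore read in the same libraries. *Ptprc*, which encodes CD45, had 0 reads in 9 libraries, with 12.5 CPM in control 1 and 38.9 CPM in met 2. *Gata1*, the defining factor of red cells and megakaryocytes, had 0 reads in 10 libraries. The 7 red cell markers summed to 0.19 to 125 CPM in met, 32.6 to 184.5 CPM in non-met and 96.9 to 220 CPM in control. The 8 monocyte and macrophage markers summed to 47.6 to 51.6 CPM in met, 15.9 to 503 CPM in non-met and 35.8 to 69.9 CPM in control. The B cell markers summed to at most 97.7 CPM in any library, and the T and NK cell markers to at most 136 CPM. The 8 megakaryocyte and platelet markers summed to 83.3 to 124 CPM in met, 0 to 59.5 CPM in non-met and 0 to 31.3 CPM in control. *Itga2b* was the marker of this list that passed voomLmFit in met against control. It had 29.9 to 99.99 CPM in met and 0 CPM in both controls, and the call was lost in 18 of 24 alternative fits. The 8 markers of blood stem cells, progenitors and mast cells summed to 94.6 to 457 CPM in met, 16.4 to 297 CPM in non-met and 138 to 150.4 CPM in control. The 10 granulocyte markers summed to 35.5 to 203 CPM in met, 397 to 5219 CPM in non-met and 77.8 to 359 CPM in control. Stromal cells also express *Nr2f2*. The 11 stromal and osteolineage markers summed to 546 to 3062 CPM in met, 1223 to 3884 CPM in non-met and 4115 to 10940 CPM in control, and *Cxcl12* of this list was called lower in both burdened groups than in control. The 10 epithelial markers summed to 31.9 to 160 CPM in met, 33.9 to 681 CPM in non-met and 17.4 to 88.3 CPM in control. *Lcn2* of this list is also a granulocyte marker and reached 509 CPM in non-met 6, and without it the sums were 31.7 to 158 CPM in met, 24.5 to 172 CPM in non-met and 17.4 to 62.1 CPM in control. For the stromal and the epithelial sum alike, met and non-met values lay in overlapping ranges. The part of stromal and tumour cells in the *Nr2f2* values was not tested. The part of blood cells in the *Tal1*, *Gata2* and *Fli1* values was not tested.

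The wider families gave no calls in the main fit of voomLmFit. Over all genes tested, that fit called 0.418% in met against non-met, 1.2% in met against control and 0.636% in non-met against control. At such shares, 0 calls in lists of this size do not set these families apart. Of 20 other ETS factors, 14 were tested and none was called in any comparison by voomLmFit. In met against non-met 11 of the 14 were fitted higher, against 51.8% of all genes tested. In non-met against control 5 were fitted higher and 9 lower, where 44.1% of all genes tested were fitted higher. Of 30 other SOX, KLF, FOX and HEY factors and their kin, 27 were tested and 0 called. *Klf4*, a shear-responsive factor of quiescent endothelium, was the one whose met and non-met libraries did not overlap, at 330 to 772 CPM in met and 797 to 1634 CPM in non-met (fitted log2 fold change -0.97 ± 0.28, SE, voomLmFit adjusted P = 0.198). It was called by DESeq2 (-1.26, adjusted P = 0.013) and by voomLmFit with mouse pool as a fixed block (-1.60, adjusted P = 0.044), and not in the other 25 alternative fits (adjusted P = 0.12 to 0.704). Of 14 partners of *Tal1* and *Gata2*, 11 were tested and 0 called. Their median fitted log2 fold change in met against non-met was -0.64, against 0.08 over all genes tested. None of the 12 tested arterial genes was called in any comparison.

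Endothelial genes that ETS factors are known to bind were read beside the factors. All 20 of the listed genes were tested, and in met against non-met 5 were called higher and 0 lower, where 0.418% of all genes tested were called. The median fitted log2 fold change was 0.48 against 0.08 over all genes tested, and 20 of the 20 were fitted higher, but 11 with mouse pool as a fixed block or in library set 2 alone, and 13 by DESeq2, with the term for library sets or without met 3. *Pecam1* (0.89 ± 0.13, SE, voomLmFit adjusted P = 0.000455), the phosphatase gene *Ptprb* (1.14 ± 0.17, adjusted P = 0.000503), the receptor gene *Tie1* (0.96 ± 0.15, adjusted P = 0.000736) and the TGF-beta co-receptor gene *Eng* (0.77 ± 0.15, adjusted P = 0.0118) were the leading ones. The fifth was *Cdh5*, the cadherin of endothelial junctions, which was picked out after its values were seen because it alone of the 5 did not overlap, at 1871 to 2099 CPM in met and 1026 to 1862 CPM in non-met (0.56 ± 0.11, adjusted P = 0.0159). For these 5 genes met 3 carried 83.3% to 99.8% of the weight of met, and non-met 2 53.8% to 66.0% of that of non-met. The count of calls depended on the fit, and it was 5 or 6 in 14 of 27 alternative fits, among them those without sample weights, with other scalings or filters, and with mouse pool as a random block. Each of edgeR's quasi-likelihood test, DESeq2, limma-trend, the fit with mouse pool as a fixed block, the term for library sets and library set 2 alone called 0 of the 20, and leaving out non-met 2 or met 3 left 1 call. The remaining 5 fits called 3. *Pecam1* is a marker that the cells were sorted on. In met against control 5 of the 20 were called higher and 1, *Kdr*, lower, where 1.2% of all genes tested were called and 0.686% were called higher. *Pecam1* (1.342 ± 0.015), *Ptprb* (1.01 ± 0.04), *Tie1* (1.19 ± 0.09) and *Emcn* (0.91 ± 0.11, log2 fold change ± SE) led by voomLmFit adjusted P, from 8.9e-27 to 1.68e-05. In these 4 fits control 1 carried 92.1% to 99.9% of the weight of the controls and met 3 75.3% to 99.8% of that of met, so that the small errors rest largely on 1 library of each group. *Kdr*, a VEGF receptor gene named after its values were seen, was fitted lower (-0.48 ± 0.06, SE, adjusted P = 2.21e-05), although its mean log2 CPM was 10.68 in met and 10.60 in control, and control 1 carried nearly the whole control weight. edgeR's quasi-likelihood test, DESeq2, limma-trend and the term for library sets called 0 of the 20, leaving out control 2 gave 11 calls and leaving out met 3 gave 2. In non-met against control, where 0.636% of all genes tested were called, 0 of the 20 were called higher and 1, *Eng*, lower (-0.80 ± 0.14, SE, adjusted P = 0.00603), and its fitted value in met against control was -0.034 (adjusted P = 0.789). The groups overlapped for *Eng* in all 3 comparisons, control 1 carried 99.9% of its control weight, and without control 1 its value in non-met against control was -0.14 (adjusted P = 0.622).

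Of the venous and sinusoidal genes, read beside *Nr2f2*, 10 of 12 were tested and 0 called in met against non-met, where 0.418% of all genes tested were called. In met against control 1 of the 10 was called higher and 3 lower, where 1.2% of all genes tested were called. In met against control *Ephb4*, a venous receptor, was called higher (1.04 ± 0.24, log2 fold change ± SE, voomLmFit adjusted P = 0.0287), with overlapping groups (518 to 1283 CPM in met, 317 to 644 CPM in control) and 83.6% of the control weight on control 1, and *Stab2*, *Stab1* and *Aplnr* were fitted lower and called. For *Stab1* and *Aplnr* the means of the libraries did not show this direction. *Stab1* had a mean log2 CPM of 10.56 in met and 10.57 in control against a fitted log2 fold change of -0.39, with 99.99% of the control weight on control 1. *Aplnr* had 9.75 in met and 9.72 in control against a fitted value of -0.93, with 97.1% of the control weight on control 1. *Stab2*, a scavenger receptor of sinusoids, was the one of these 3 that did not overlap, at 935 to 1331 CPM in met against 2371 and 3364 CPM in control (-0.94 ± 0.15, SE, adjusted P = 0.00058). For this gene control 2 carried 88.4% of the weight of the controls and met 3 77.8% of that of met. *Stab2* was also called lower in non-met than in control (-0.58 ± 0.11, SE, adjusted P = 0.0136), where 0.636% of all genes tested were called. edgeR's quasi-likelihood test, limma-trend and the term for library sets called none of these 4 genes in met against control.

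The genes whose pattern over the 11 libraries was most like that of a member were found by the mean absolute difference of mean-centred log2 CPM among 3566 genes with a mean of at least 5 log2 CPM. *Rhob* (0.18 log2 units), *Mapre1* and *Aplnr* were nearest to *Erg*. *Lamp1* (0.18), *Trp53i11* and *Tek*, the angiopoietin receptor gene, were nearest to *Ets2*, *Rrbp1* (0.22), *Slc25a3* and *Trim28* to *Ets1*, and *Ddx17* (0.28), *Pnp* and *Dysf* to *Sox18*. For the other 6 members the smallest difference was larger, at 0.43 for *Gata2* (*Rab14*, then *Ppp2ca*), 0.46 for *Fli1* (*Actr1b*, then *Arid1b* and *Cdk13*), 0.54 for *Nr2f2* (*Fndc3b*, then *Metap2* and *Vps54*), 0.62 for *Sox7* (*Prickle2*, then *Nrep* and *Fam189a2*), 0.76 for *Sox17* (*Emc1*, then *9530082P21Rik* and *Ubn2*) and 1.05 for *Tal1* (*Uhrf2*, then *Eif1ax* and *Fam114a2*). Over the 11 libraries the SD of log2 CPM was 0.37 to 0.66 for *Erg*, *Ets1*, *Ets2* and *Sox18*, and 1.63 to 3.43 for the other 6 members. The smaller differences thus belonged to the members that varied less. The points share libraries and depth, and no member was among the 3 nearest genes of another.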

How the data were processed

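RNA of sorted CD31hi EMCNhi cells was amplified with the SMART-Seq v4 low-input kit and sequenced as 75 bp paired reads. The authors mapped these to mm10 (Rsubread), obtained read numbers for each Entrez gene ID (featureCounts, built-in annotation) and removed 1 library with few mapped reads. The deposited values are raw counts, not normalised. Groups and mouse pools were taken from the labels. Whether pools are separate experiments is not stated beyond their names, so P values measure the spread between these libraries.

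Left out were 1886 unnamed rows, 35 of ribosomal RNA and 1794 predicted genes, and filterByExpr (minimum count 10, minimum total 15) kept 11949 of 23464 genes. Symbols came from RefSeq of GRCm38.p6 (25275) and GENCODE (18). As in the study, voomLmFit with sample weights was used (edgeR 4.0.16, limma 3.58.1), here with TMM scaling, 1 model of 3 groups and Benjamini-Hochberg adjustment over all genes at 0.05. log2 CPM and log2 RPKM used a prior count of 2. For single values an exact two-sided permutation test was used (84, 10 and 28 splits). The script was tested on simulated counts.

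The members and gene lists were chosen with earlier results of these data known. From the lists, genes were named if called, at most 4 per list and comparison, or, in lists with none, if met and non-met libraries did not overlap. Outside this rule were *Cdh5* and *Kdr*, named after their values were seen, and the cell markers *Ptprc*, *Gata1* and *Lcn2*. Granulocyte genes that did not overlap between met and non-met entered only as part of a sum. Beyond the lists, the 3 genes most like each member were named, except 1 that is not reported here. Alternatives were edgeR's quasi-likelihood test, DESeq2 1.42.0, limma-trend, other scalings, filters and weights, mouse pool as a block, libraries of a pool summed, 2 groups only and each library left out. Chosen after seeing the data were a term for 2 library sets, set 2 alone and leaving out the 2 shallowest libraries. The pools pair libraries of the same mice per the labels, and the deviations of the paired libraries from their group means correlated across genes at -0.03 to 0.01. Between libraries of different pools the correlations were -0.03 to 0.07, so the pairing cannot be seen in these values. Counts per library cover counting error only.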

Additional observations from a re-analysis of the deposited data

Results flagged for a closer look

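Among the 6 non-met libraries, non-met 3 stood far below the others for *Sox17*, at -0.58 log2 CPM with 1 read, the gap to the next library being 0.764 of the whole range. The same library was lowest for *Sox18*, at 7.87 log2 CPM, with a gap of 0.634 of the range. Both gaps pass Dixon's critical value for 6 libraries, which chance passes in about 1 of 20 groups, and 10 members were examined. Non-met 3 had 4082656 counts, more than 3 of the other non-met libraries. It was also the lowest non-met library for *Erg* (gap 0.409 of the range) and *Tal1* (0.407, 0 reads), neither past the critical value, and for the other 6 members another library was lowest.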

How the results depend on the processing

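In met against non-met, 0 members were called in all 27 alternative fits, including mouse pool as a fixed or random block. In met against control, the 1 call became 0 under edgeR's quasi-likelihood test, DESeq2, limma-trend, library size alone, ribosomal and predicted genes kept, libraries of a pool summed, 2 groups only and the term for library sets, and 2 without sample weights and without a filter (*Sox18* added), and leaving out 1 library gave 0 to 2 (0 without control 1, met 3 or non-met 1, 5 or 6, and 2 without control 2 or non-met 3, and without met 2 the 1 call was *Sox18* in place of *Ets2*). In non-met against control, RLE scaling called 2 (*Ets1* and *Ets2*), and leaving out 1 library gave 0 to 1 (1 without control 2, non-met 3 or met 3). Blocking on the pool changed no other call of a member. Of all genes tested, 1.98% did not overlap between met and non-met in the main setting. This share was 4.74% without non-met 4 and 6, 2.98% without non-met 6 and 5.56% without met 3. The count of members whose libraries did not overlap was 2 in met against non-met without non-met 4 and 6 (*Fli1* added), and 1 to 2 when 1 library was left out (2 without non-met 6 or met 3). It was 2 to 6 in met against control (4 without control 1 or control 2, 6 without met 1), where 43.5%, 38.4% and 34.0% of all genes tested did not overlap either. In non-met against control it was 2 with library size alone, 3 with the libraries of a pool averaged as a replicate block, and 1 to 2 when 1 library was left out (2 without control 2 or non-met 1 or 5), and the share of all genes tested rose from 6.29% to between 7.9% and 16.1% in these settings. *Nr2f2* stayed apart in every setting of both met comparisons, and *Gata2* in every setting of non-met against control. Leaving out or averaging libraries cannot make separated groups overlap. Only the prior count of 0.5 and library size alone could have changed this result. The exact P of 0.0476 for *Nr2f2* became 0.0571 with libraries of a pool averaged and ranged from 0.0357 to 0.143 when 1 library was left out.

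The sign of several log2 fold changes turned, among them that of *Aplnr* in met against control, which was called in the main fit. The others listed here were not called. In met against non-met, edgeR's quasi-likelihood test gave -0.19 for *Ets2*, -0.16 for *Sox7* and 0.14 for *Sox18*, DESeq2 gave -0.34 for *Ets2* and -0.39 for *Sox7*, limma-trend gave -0.14 for *Ets2*, -0.75 for *Sox7* and 0.12 for *Sox18*, RLE scaling -0.11 for *Sox7*, library size alone 0.008 for *Ets1*, libraries of a pool summed -0.12 for *Sox7*, and mouse pool as a fixed block 0.10 for *Ets1*, -0.57 for *Ets2*, -0.18 for *Sox7* and 0.58 for *Sox18*. The term for library sets gave 0.23 for *Ets1*, -0.067 for *Sox7* and 0.29 for *Sox18*, set 2 alone 0.045 for *Ets1*, -0.012 for *Ets2* and 0.16 for *Sox18*, and leaving out non-met 4 and 6 gave 0.036 for *Ets1* and -0.45 for *Sox7*. In met against control, *Sox7* was 0.68 by the quasi-likelihood test and 0.59 by DESeq2, and *Gata2* -0.036 with RLE scaling, -0.082 with library size alone and -1.14 by limma-trend. *Sox17* was -0.11 without sample weights, *Aplnr* 0.16, 0.11 and 0.030 by the quasi-likelihood test, DESeq2 and limma-trend, and with the term for library sets *Erg* was 0.043 and *Sox18* 0.25. In non-met against control, *Sox7* was 0.84 by the quasi-likelihood test and 0.98 by DESeq2, *Sox17* -0.29 without sample weights, and *Fli1* 0.20 with the term for library sets. The causes were not tested.

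Leaving out 1 library at a time, the log2 fold changes in met against non-met ranged from -0.021 to 0.51 for *Erg*, -0.20 to 0.13 for *Ets1*, -0.33 to 0.27 for *Ets2*, -4.04 to 2.30 for *Sox7*, -0.92 to 1.78 for *Sox17*, -0.70 to 0.41 for *Sox18* and -5.18 to 0.35 for *Gata2*. In met against control they ranged from -0.48 to 0.11 for *Erg*, -0.42 to 2.45 for *Fli1*, -5.02 to 1.32 for *Sox7*, -0.83 to 3.99 for *Sox17*, -1.06 to 0.051 for *Sox18*, -3.93 to 1.59 for *Gata2*, -0.45 to 0.10 for *Stab1* and -1.26 to 0.32 for *Aplnr*, and in non-met against control from -2.14 to 0.73 for *Fli1* and -1.58 to 3.25 for *Sox17*. The difference in mean log2 CPM of *Gata2* ranged from -3.79 to 0.33 in met against non-met and from -2.57 to 1.55 in met against control. Directions of *Tal1* and *Nr2f2* held in all fits of all 3 comparisons.

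Over all genes tested, the calls in met against non-met ranged from 2 (limma-trend) to 326 (DESeq2) around 50, those in met against control from 4 (term for library sets) to 429 (no filter) around 143, and those in non-met against control from 8 (limma-trend) to 267 (DESeq2) around 76. The share of calls higher in met than in non-met was 66.0%, 53.3% with RLE scaling and 73.8% with library size alone, and the shares higher in non-met than in control were 28.9%, 38.6% and 13.8%. The median log2 fold change of all genes in met against non-met was 0.08, -0.09 with RLE scaling and 0.14 with library size alone. With the fit without control 1 or control 2, the lone control is assumed to vary like the other groups. Depth limits the low members most, 3 reads standing for 5.43 CPM in non-met 4.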
